A study of Mus musculus with 29 samples.

Results

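Activated fibroblasts and the matricellular proteins they secrete were followed through 10 genes, Postn, Tnc, Fn1, Spp1, Sparc, Thbs1, Fap, Lox, Loxl2 and Pdpn, in the distal colon of cytoglobin-deficient and wild-type mice. The genes were chosen by name, with earlier results of these data known. The shares over all probe sets given below are therefore background and test no enrichment. Each gene was read from the probe set that the platform annotation pairs with that gene alone. This left 8 measured genes with 1 probe set each, of 22180 genes annotated in the same way on the array. Both probe sets that name Loxl2 also name Gm21451 and were not used, and Spp1 was not analysed here because the annotation used lists no probe set for it.

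Affymetrix Mouse Gene 2.0 ST arrays were used to measure mRNA in 29 distal colon samples of female C57BL/6 mice aged 18-24 weeks. There were 5 AOM/DSS-treated Cygb-/- mice, 8 AOM/DSS-treated WT mice, 8 untreated Cygb-/- mice and 8 untreated WT mice, although the submitters' design text counts 8 mice in every group. Treated mice received a single injection of 7.4 mg/kg azoxymethane (AOM, a colon carcinogen) and then 3% dextran sulfate sodium (DSS, which injures the colonic epithelium) for 7 days per cycle. The sample labels describe 1 DSS cycle and tissue taken in week 5. The methods of the study describe 2 cycles and tissue taken in week 7 for the microarray mice, 5 treated Cygb-/- and 8 treated WT. These are the treated group sizes found here, but the labels differ, so the stage of the inflammation is not settled. The Cygb-/- mice lacked exon 2 of Cygb in every cell from conception and had been backcrossed for 7 generations to C57BL/6J. Cygb-/- and WT animals came from separate lines founded by related crosses, so that genotype and breeding line cannot be told apart.

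Fibroblasts of the resting colon keep up a thin scaffold of collagen around the crypts. After injury they become activated, spread, secrete provisional matrix and cross-link it, and in chronic colitis this response can end in fibrosis or accompany tumor growth. Matricellular proteins are secreted into the matrix but act mainly as signals: they bind integrins, growth factors and proteases and change how cells adhere and migrate. None of the genes belongs to fibroblasts alone, since macrophages, endothelium, platelets and smooth muscle can express several of them.

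The arrays were of similar brightness, with medians between 4.76 and 4.88 log2 units. Cygb itself lay between 6.03 and 6.48 in AOM/DSS Cygb-/- colons against 8.41 to 9.29 in AOM/DSS WT colons, and between 5.84 and 6.41 in untreated Cygb-/- colons against 8.57 to 8.98 in untreated WT colons, in keeping with every genotype label. AOM/DSS Cygb-/- replicate 3 had an Xist value of 3.82, whereas the other 28 arrays lay between 10.64 and 11.15, which goes against its label as a female. Fold changes of the 8 genes that rest on this array, and counts of calls in the gene lists, are therefore also given without it. The 10 colonocyte markers averaged between 9.69 and 11.13 log2 units on single arrays. All values below are log2 RMA values, fold changes are differences of group means on that scale, and a gene was called when its adjusted p in limma was under 0.05 (Benjamini-Hochberg over 41345 probe sets).

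RefSeq promoter sequences of build GRCm38.p6 were listed for 4 of the 8 measured genes, Postn, Tnc, Sparc and Pdpn. They lie upstream of listed starts of these genes, and the arrays do not show which start was used. Each stretch is the 250 bases upstream of a listed transcription start, read 5′ to 3′ on the gene's strand. Capitals mark matches on either strand to the TATA box (TATAAA) or the GC box (GGGCGG).
Postn, chr3:54360857-54361106, plus strand: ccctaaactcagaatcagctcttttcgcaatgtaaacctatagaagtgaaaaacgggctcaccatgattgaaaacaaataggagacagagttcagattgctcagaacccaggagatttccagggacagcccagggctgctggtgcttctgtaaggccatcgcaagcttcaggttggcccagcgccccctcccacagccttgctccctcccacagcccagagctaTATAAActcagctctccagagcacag
Tnc, chr4:64047016-64047265, minus strand: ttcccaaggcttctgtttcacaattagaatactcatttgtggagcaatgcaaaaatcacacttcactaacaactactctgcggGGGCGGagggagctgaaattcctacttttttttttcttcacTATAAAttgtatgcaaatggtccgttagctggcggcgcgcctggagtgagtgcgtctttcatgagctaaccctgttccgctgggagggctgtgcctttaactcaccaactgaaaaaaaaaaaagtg
Sparc, chr11:55420081-55420330, minus strand: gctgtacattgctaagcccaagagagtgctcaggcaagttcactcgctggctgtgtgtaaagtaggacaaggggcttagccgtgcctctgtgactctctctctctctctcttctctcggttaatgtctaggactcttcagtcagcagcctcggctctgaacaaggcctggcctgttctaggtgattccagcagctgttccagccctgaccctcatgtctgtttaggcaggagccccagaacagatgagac
Pdpn, chr4:143299565-143299814, minus strand: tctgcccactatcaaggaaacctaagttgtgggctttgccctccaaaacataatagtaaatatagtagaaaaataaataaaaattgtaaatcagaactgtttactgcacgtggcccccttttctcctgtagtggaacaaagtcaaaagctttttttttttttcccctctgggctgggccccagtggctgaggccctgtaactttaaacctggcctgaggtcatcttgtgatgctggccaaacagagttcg
For Postn and Tnc, which have 2 listed starts each, 1 stretch was chosen for printing after the letters had been seen. The TATAAA of Postn began 26 bases upstream of the second listed start, and that of Tnc 126 bases upstream of the first. TATAAA occurred in 12.4% and GGGCGG in 32.7% of 32841 listed stretches of this length. The AP-1 motif TGANTCA (6.75% of stretches) and the TEAD motif CATTCC (12.6%) were also searched on both strands and had no match in any listed stretch of the 4 genes.

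The first comparison asked how the genes differed between inflamed and untreated colon. In Cygb-/- colons 6 of the 8 genes rose with AOM/DSS (Tnc, Fn1, Sparc, Thbs1, Lox and Pdpn), Fap fell, and Postn was not called. Of all probe sets in this comparison, 12.6% were called higher and 13.5% lower. In WT colons 5 of the 8 rose (Fn1, Sparc, Thbs1, Lox and Pdpn) and none fell, while Postn, Tnc and Fap were not called. The background in WT colons was 12.5% of probe sets called higher and 14.3% called lower. The median log2 fold change of the 8 genes was 0.83 in Cygb-/- colons and 0.53 in WT colons, beside medians of -0.04 over all probe sets in each. Whole colon was measured, so fewer cells of a type and less RNA per cell cannot be told apart.

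**Figure D1:**
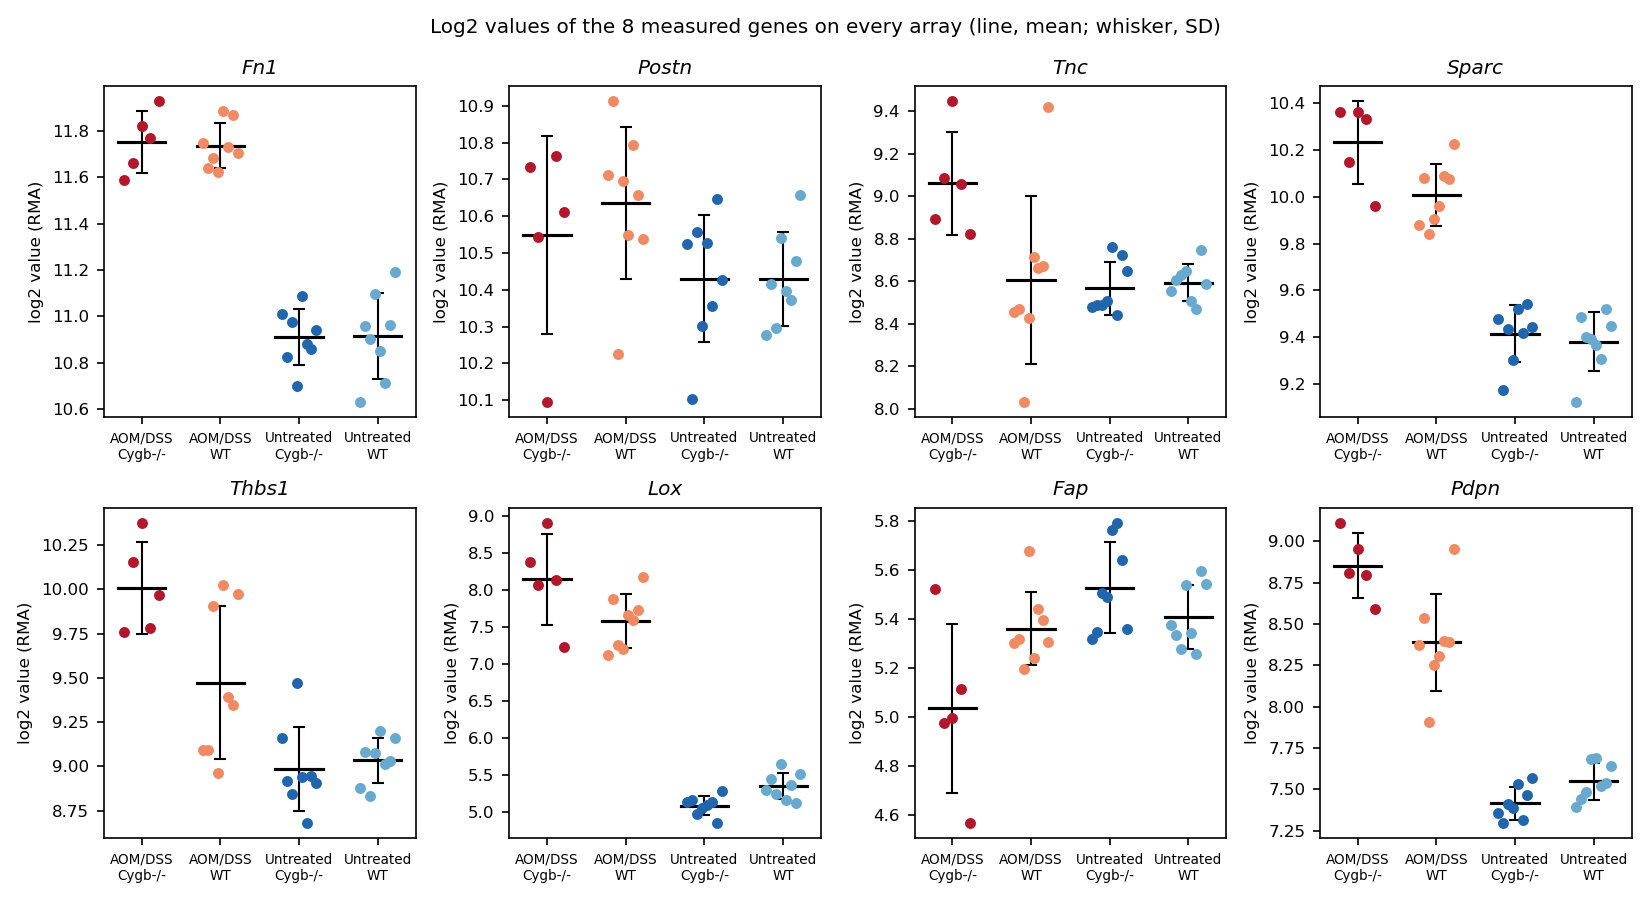
Log2 RMA value of each of the 8 genes (vertical axes, scaled separately) on every array, in columns for AOM/DSS Cygb-/-, AOM/DSS WT, untreated Cygb-/- and untreated WT colons; points are arrays in replicate order, lines are means and whiskers are SD. Lox lay between 7.13 and 8.92 on all treated arrays, above every untreated array, whereas the Postn columns overlap.

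Fn1 encodes fibronectin, the glycoprotein that forms the provisional matrix of a wound and on which collagen fibres assemble. It measured 11.59, 11.66, 11.82, 11.77 and 11.93 in AOM/DSS Cygb-/- colons (replicates 1 to 5), against 10.70 to 11.09 with a median of 10.91 in untreated Cygb-/- colons. In AOM/DSS WT colons it lay between 11.62 and 11.89 (median 11.72), against 10.63 to 11.19 (median 10.93) in untreated WT colons. Treated and untreated arrays did not overlap in either genotype. The log2 fold change was 0.84 ± 0.08 (SE, n = 5 and 8, limma adjusted p = 2.75e-06) in Cygb-/- colons and 0.82 ± 0.08 (SE, n = 8 and 8, limma adjusted p = 5.49e-07) in WT colons, or 1.80-fold in Cygb-/- and 1.77-fold in WT colons.

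Postn encodes periostin, a matricellular protein that binds integrins and promotes collagen cross-linking. AOM/DSS Cygb-/- colons had 10.73, 10.54, 10.10, 10.76 and 10.61, against 10.10 to 10.65 (median 10.47) in untreated Cygb-/- colons. The values were 10.23 to 10.91 (median 10.68) in AOM/DSS WT colons and 10.28 to 10.66 (median 10.41) in untreated WT colons. The groups overlapped in both genotypes, and replicate 3 was the lowest array of each treated group. The log2 fold change was 0.12 (95% interval -0.13 to 0.37, limma adjusted p = 0.514) in Cygb-/- colons and 0.21 (0.02 to 0.39, adjusted p = 0.0882) in WT colons. Without AOM/DSS Cygb-/- replicate 3 the Cygb-/- value was 0.23 (adjusted p = 0.110). Leaving out AOM/DSS WT replicate 3 brought the WT difference past the threshold (0.26, adjusted p = 0.0126), as did limma's array weights (0.24, adjusted p = 0.0309).

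Tnc encodes tenascin-C, a large matricellular glycoprotein that is scarce in most adult tissue and reappears at sites of injury. On these arrays Tnc had a 29-array mean at the 91.0th percentile of all probe sets. It measured 8.89, 9.09, 9.45, 9.06 and 8.82 in AOM/DSS Cygb-/- colons, against 8.44 to 8.76 (median 8.50) in untreated Cygb-/- colons. AOM/DSS WT colons ranged from 8.03 in replicate 3 to 9.42 in replicate 8 (median 8.57), against 8.47 to 8.75 (median 8.60) in untreated WT colons. All 5 treated Cygb-/- arrays therefore lay above all untreated Cygb-/- arrays, whereas the treated WT arrays lay on both sides of the untreated ones, with an SD of 0.39 against 0.09. The log2 fold change was 0.49 ± 0.10 (SE, limma adjusted p = 0.00189) in Cygb-/- colons and 0.01 ± 0.13 (SE, adjusted p = 0.957) in WT colons. Without AOM/DSS WT replicate 8 the WT value was -0.10 (adjusted p = 0.426).

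Sparc encodes osteonectin, a collagen-binding matricellular protein that is needed for normal fibre assembly. AOM/DSS Cygb-/- colons had 10.36, 10.15, 10.36, 10.33 and 9.96, against 9.17 to 9.54 (median 9.44) in untreated Cygb-/- colons. In WT mice the values were 9.84 to 10.23 (median 10.02) after AOM/DSS, against 9.12 to 9.52 (median 9.40) in untreated colons. Again neither genotype showed an overlap between treated and untreated arrays. Sparc rose 1.76-fold in Cygb-/- colons (log2 fold change 0.82 ± 0.09 SE, limma adjusted p = 7.77e-06) and 1.54-fold in WT colons (0.63 ± 0.07 SE, adjusted p = 3.41e-06).

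Thbs1 encodes thrombospondin-1, a matricellular inhibitor of angiogenesis and an activator of latent TGF-β that platelets also store. It measured 9.76, 10.15, 10.38, 9.78 and 9.97 in AOM/DSS Cygb-/- colons, against 8.68 to 9.47 (median 8.93) in untreated Cygb-/- colons. AOM/DSS WT colons had 9.09, 9.09, 9.91, 8.96, 10.02, 9.39, 9.35 and 9.97 (replicates 1 to 8), against 8.83 to 9.20 (median 9.05) in untreated WT colons. The treated WT arrays were spread widely: replicates 3, 5 and 8 reached the range of the treated Cygb-/- arrays, whereas replicates 1, 2 and 4 lay inside the range of untreated WT colons. Thbs1 rose 2.04-fold in Cygb-/- colons (log2 fold change 1.03 ± 0.13 SE, limma adjusted p = 4.75e-05) and 1.36-fold in WT colons (0.44 ± 0.15 SE, adjusted p = 0.0383). The WT call was lost, with adjusted p up to 0.0757, in 8 of the 16 fits that left out 1 array: AOM/DSS WT replicate 3, 5 or 8, or untreated WT replicate 1, 2, 3, 6 or 7.

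Lox encodes lysyl oxidase, the secreted copper enzyme that starts the cross-linking of collagen and elastin. It measured 8.38, 8.08, 8.92, 8.14 and 7.23 in AOM/DSS Cygb-/- colons, against 4.85 to 5.28 (median 5.11) in untreated Cygb-/- colons. AOM/DSS WT colons ranged from 7.13 to 8.18 (median 7.64), against 5.13 to 5.65 (median 5.33) in untreated WT colons. The lowest treated array of either genotype was well above the highest untreated one. Lox had the largest change of the 8 genes, 8.35-fold in Cygb-/- colons (95% interval 6.20 to 11.2, limma adjusted p = 1.58e-07) and 4.70-fold in WT colons (3.86 to 5.74, adjusted p = 4.66e-09). By log2 fold change it ranked 79th of the 41345 probe sets in Cygb-/- colons and 151st in WT colons.

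Fap encodes fibroblast activation protein, a membrane serine protease used as a marker of activated fibroblasts. AOM/DSS Cygb-/- colons had 5.53, 4.97, 4.99, 5.11 and 4.56, against 5.32 to 5.80 (median 5.50) in untreated Cygb-/- colons. The values in WT mice were 5.20 to 5.68 (median 5.31) after AOM/DSS and 5.26 to 5.60 (median 5.36) in untreated colons. In Cygb-/- mice replicate 1 alone of the treated arrays reached into the untreated range, and in WT mice the groups overlapped throughout. Fap fell 1.41-fold in Cygb-/- colons (log2 fold change -0.49 ± 0.14 SE, limma adjusted p = 0.0153), and the value in WT colons was -0.05 ± 0.07 (SE, adjusted p = 0.674). It was the dimmest of the 8 probe sets, with a 29-array mean at the 58.1st percentile of all probe sets.

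Pdpn encodes podoplanin, a mucin-type membrane protein of activated fibroblasts, reticular stroma and lymphatic endothelium that binds the platelet receptor encoded by Clec1b. It measured 9.11, 8.81, 8.95, 8.80 and 8.59 in AOM/DSS Cygb-/- colons, against 7.29 to 7.57 (median 7.40) in untreated Cygb-/- colons. In AOM/DSS WT colons it lay between 7.91 in replicate 3 and 8.95 in replicate 8 (median 8.38), against 7.39 to 7.69 (median 7.53) in untreated WT colons. No treated array overlapped with the untreated arrays of its genotype. Pdpn rose 2.71-fold in Cygb-/- colons (log2 fold change 1.44 ± 0.08 SE, limma adjusted p = 6.08e-08) and 1.79-fold in WT colons (0.84 ± 0.11 SE, adjusted p = 1.64e-05).

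**Figure D2:**
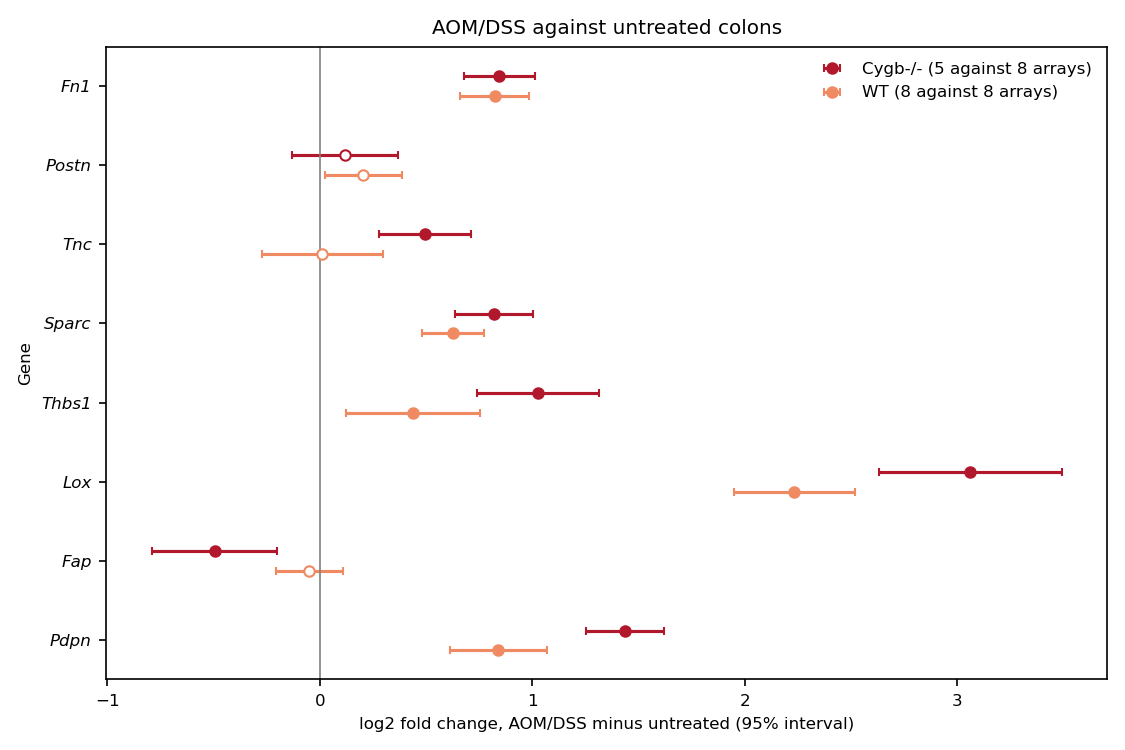
Log2 fold change of each gene (horizontal axis, AOM/DSS minus untreated) with its 95% interval, for Cygb-/- colons (upper point of each pair) and WT colons (lower point); filled points had a limma adjusted p under 0.05. Lox lies at 3.06 in Cygb-/- and 2.23 in WT colons, and Fap is the sole filled point below 0.

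Treated arrays lay wholly above untreated arrays for 6 of the 8 genes in Cygb-/- mice (Tnc, Fn1, Sparc, Thbs1, Lox and Pdpn) and for 4 of the 8 in WT mice (Fn1, Sparc, Lox and Pdpn). No gene had its treated arrays wholly below. Over all probe sets the share wholly above was 7.58% in Cygb-/- mice, with 5 treated arrays, and 4.05% in WT mice, with 8 (wholly below, 7.42% and 4.45% in Cygb-/- and WT mice). Without AOM/DSS Cygb-/- replicate 3 the same number of genes, 7 of 8, was called in Cygb-/- colons, with log2 fold changes of 2.87 for Lox, 1.41 for Pdpn, 0.93 for Thbs1, 0.83 for Fn1, 0.79 for Sparc, 0.40 for Tnc and -0.48 for Fap and a median of 0.81 over the 8 genes.

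The next comparison asked whether the inflamed colons of the genotypes differed. Cygb-/- means were above WT means for 6 of the 8 genes and below them for Fap and Postn, but none of the 8 was called by limma. Of all probe sets 0.0339% were called higher and 0.133% lower in AOM/DSS Cygb-/- colons. At an unadjusted p under 0.05 there were 6 of 8 genes, beside 9.69% of all probe sets, and without AOM/DSS Cygb-/- replicate 3 there were 2 of 8, beside 8.33%. The fit of all 4 groups together called 1 gene, Pdpn (higher, adjusted p = 0.0298), and 0.464% of all probe sets higher. The median log2 fold change of the 8 genes was 0.34, against 0.00 over all probe sets, and it was 0.28 without AOM/DSS Cygb-/- replicate 3.

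Lox averaged 8.15 ± 0.61 in AOM/DSS Cygb-/- colons and 7.58 ± 0.37 in AOM/DSS WT colons (SD, n = 5 and 8), a log2 difference of 0.57 (95% interval 0.05 to 1.09, limma adjusted p = 0.469). Thbs1 averaged 10.01 ± 0.26 in AOM/DSS Cygb-/- colons and 9.47 ± 0.43 in AOM/DSS WT colons, a difference of 0.54 (0.11 to 0.96, adjusted p = 0.401). Pdpn averaged 8.85 ± 0.20 in AOM/DSS Cygb-/- colons and 8.39 ± 0.29 in AOM/DSS WT colons, a difference of 0.46 (0.16 to 0.76, adjusted p = 0.290). All 5 Cygb-/- arrays exceeded the WT median for Thbs1, Pdpn and Tnc, and 4 of 5 did for Lox and Sparc, yet for each of the 8 genes the ranges of the genotypes overlapped (0.239% of all probe sets were wholly higher and 0.406% wholly lower in Cygb-/- colons). Tnc averaged 9.06 ± 0.24 in AOM/DSS Cygb-/- colons and 8.61 ± 0.39 in AOM/DSS WT colons, a difference of 0.46 (0.07 to 0.84, adjusted p = 0.437). Sparc differed by 0.23 (0.03 to 0.42, adjusted p = 0.436) and Fap by -0.33 (-0.61 to -0.05, adjusted p = 0.438). For Fn1 the difference was 0.02 (-0.14 to 0.18, adjusted p = 0.967), so that an excess of fibronectin mRNA above 1.13-fold in Cygb-/- colons lay outside the 95% interval. For Postn it was -0.09 (-0.36 to 0.19, adjusted p = 0.888). Without AOM/DSS Cygb-/- replicate 3, the highest Cygb-/- array for Lox, Thbs1 and Tnc, the differences were 0.37 for Lox, 0.44 for Thbs1, 0.36 for Tnc, 0.44 for Pdpn, 0.19 for Sparc, -0.32 for Fap, 0.03 for Postn and 0.00108 for Fn1, and none was called. Beside these differences, the 10 neutrophil markers had a median log2 difference of 1.05 between AOM/DSS Cygb-/- and WT colons, with 10 of 10 positive, and the 9 smooth muscle markers one of -0.25, with 0 of 9 positive. Without AOM/DSS Cygb-/- replicate 3 the median was 0.74 for the neutrophil markers and -0.19 for the smooth muscle markers, with the same numbers positive. None of these markers was called in either fit, and their part in the differences of the 8 genes was not tested.

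In untreated colons none of the 8 genes was called between the genotypes, against a background of 0.0121% of probe sets called higher and 0.00967% called lower in Cygb-/- colons, and 2 of 8 had an unadjusted p under 0.05, beside 6.98% of all probe sets. Lox averaged 5.09 ± 0.13 in untreated Cygb-/- colons and 5.35 ± 0.18 in untreated WT colons (SD, n = 8 each), with all 8 Cygb-/- arrays below the WT median (difference -0.26, 95% interval -0.43 to -0.09, limma adjusted p = 0.439). Pdpn averaged 7.42 ± 0.10 in untreated Cygb-/- colons and 7.55 ± 0.11 in untreated WT colons, a difference of -0.13 (-0.26 to -0.01, adjusted p = 0.689). These are the 2 genes whose genotype difference was of opposite sign in untreated and in AOM/DSS colons with both 95% intervals excluding 0. For Lox this rested on AOM/DSS Cygb-/- replicate 3. Without that array its AOM/DSS difference was 0.37 ± 0.23 (SE), and the 95% interval no longer excluded 0. In untreated colons the other 6 genes had differences between -0.05 (Thbs1) and 0.12 (Fap). For all 8 the ranges of the untreated genotypes overlapped (0.0411% of all probe sets were wholly higher and 0.0677% wholly lower in Cygb-/- colons).

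**Figure D3:**
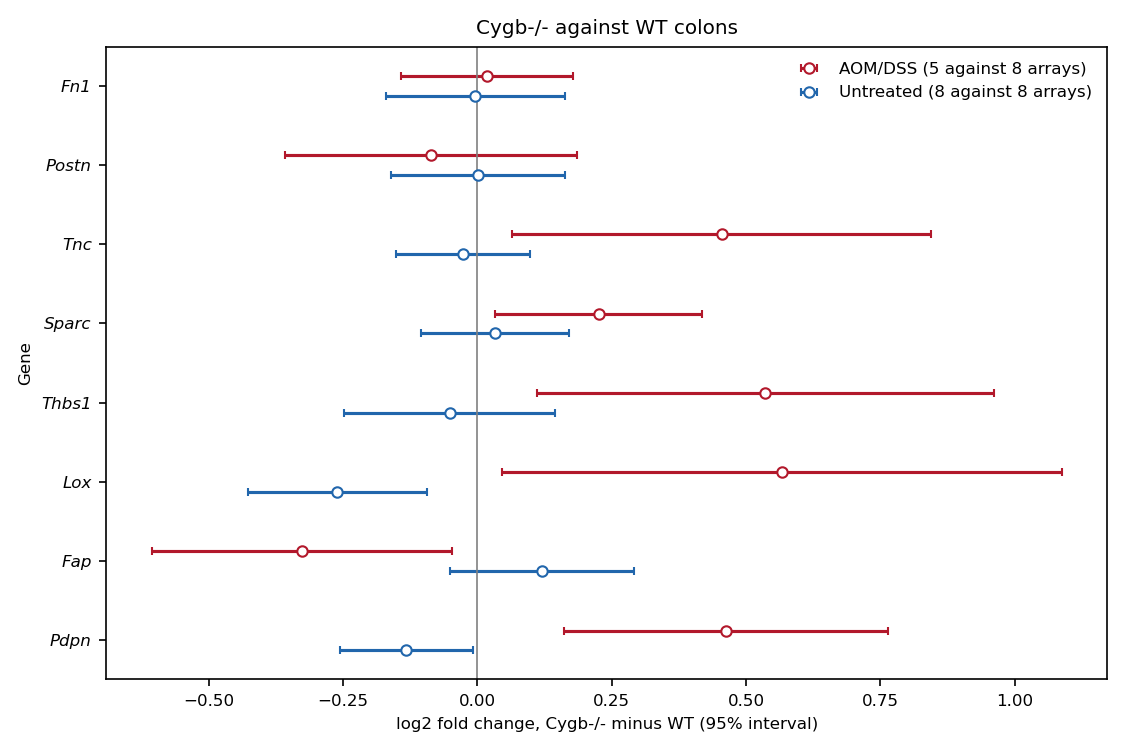
Log2 fold change of each gene (horizontal axis, Cygb-/- minus WT) with its 95% interval, in AOM/DSS colons (upper point of each pair) and untreated colons (lower point); open points had a limma adjusted p of 0.05 or more. All points are open; Lox lies at 0.57 in AOM/DSS and -0.26 in untreated colons, and Pdpn at 0.46 in AOM/DSS and -0.13 in untreated colons.

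Whether the response to AOM/DSS differed with genotype was tested as an interaction in a fit of all 4 groups, as the response in Cygb-/- minus that in WT mice. None of the 8 genes was called by limma, against 0.0460% of probe sets called higher and 0.102% called lower, and 5 of 8 had an unadjusted p under 0.05, beside 8.08% of all probe sets. The largest differences of response were 0.83 for Lox (95% interval 0.33 to 1.32, adjusted p = 0.242), 0.60 for Pdpn (0.30 to 0.89, adjusted p = 0.109) and 0.59 for Thbs1 (0.15 to 1.02, adjusted p = 0.395). Tnc followed with 0.48 (0.11 to 0.85, adjusted p = 0.419) and Fap with -0.45 (-0.75 to -0.14, adjusted p = 0.345). Tnc and Fap, called in Cygb-/- colons and not in WT colons, thus had no called difference of response between the genotypes. Single arrays moved this count: without AOM/DSS Cygb-/- replicate 5 there were 2 calls (Lox, 1.06, adjusted p = 0.0167, and Pdpn, 0.66, adjusted p = 0.0410), and without AOM/DSS WT replicate 8 there were 2 (Tnc, 0.60, adjusted p = 0.0475, and Pdpn, 0.68, adjusted p = 0.00650). Without AOM/DSS Cygb-/- replicate 3 there was none, with 0.63 for Lox, 0.57 for Pdpn, 0.50 for Thbs1, 0.39 for Tnc and -0.44 for Fap.

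Some arrays were the highest or the lowest of their treated group for several genes, and whether the genes varied together was not tested. AOM/DSS WT replicate 8 was the highest WT array for 4 of the 8 genes (Tnc, Sparc, Lox and Pdpn), and replicate 3 the lowest for 5 (Postn, Tnc, Sparc, Fap and Pdpn). AOM/DSS Cygb-/- replicate 5 was the lowest of its group for 5 (Tnc, Sparc, Fap, Lox and Pdpn) although it was the highest for Fn1. Averaged over the 8 genes, each standardised over the 29 arrays, the treated Cygb-/- arrays lay between 0.38 and 1.16, and the treated WT arrays between -0.15 and 1.14. Untreated Cygb-/- arrays lay between -0.99 and -0.17, and untreated WT arrays between -0.90 and -0.15. The lowest treated WT array thus stood level with the highest untreated arrays.

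**Figure D4:**
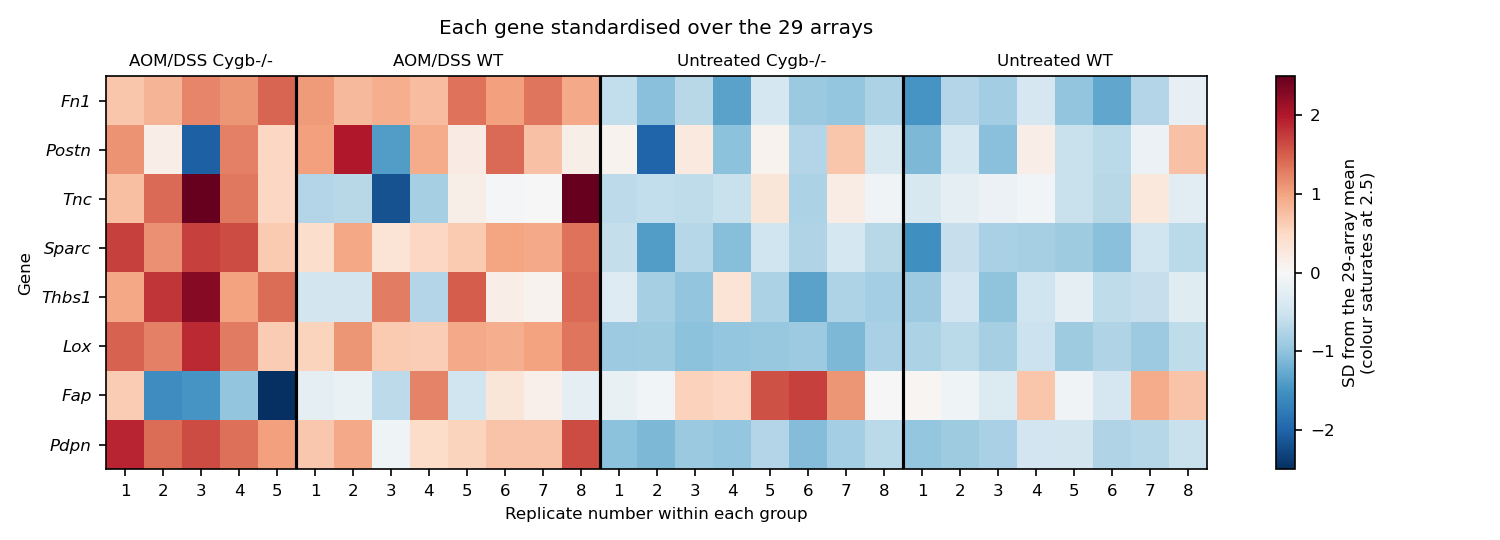
Value of each gene (rows) on every array (columns, by replicate number within the 4 groups) in SD from the gene's 29-array mean, red above and blue below it. Treated columns are red for Fn1, Sparc and Lox, Fap is bluest in AOM/DSS Cygb-/- replicate 5, and Tnc is red in AOM/DSS WT replicate 8 while replicate 3 of that group is blue.

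Lists of genes of related function were counted beside the 8. Of 16 measured genes of activated or inflammatory fibroblasts, 13 rose and 1 fell in Cygb-/- colons, and 12 rose and 1 fell in WT colons. Timp1, an inhibitor of matrix metalloproteinases, had a log2 fold change of 2.64 in Cygb-/- and 1.73 in WT colons, and Inhba, which encodes an activin subunit, 2.51 in Cygb-/- and 1.76 in WT colons (limma adjusted p of at most 1.16e-05 in each of these 4 tests). Il11, a cytokine of inflammatory fibroblasts, had 2.61 in Cygb-/- colons (adjusted p = 3.20e-05) and 1.44 in WT colons (adjusted p = 0.00447). The listed gene that fell in both genotypes was Acta2, the smooth muscle actin that also marks myofibroblasts (-0.37, adjusted p = 0.00231, in Cygb-/- and -0.26, adjusted p = 0.00257, in WT colons). Resting fibroblast markers gave 5 of 10 higher and 1 lower in Cygb-/- colons, and 5 higher and none lower in WT colons, led by Pdgfra, a growth factor receptor of fibroblasts (1.14 in Cygb-/- and 0.59 in WT colons). The collagens gave 7 of 8 higher and 1 lower in each genotype, with Col1a1 at 1.51 in Cygb-/- and 1.0 in WT colons and Col3a1 at 1.31 in Cygb-/- and 1.06 in WT colons. Col8a1, a short-chain collagen, was the gene that fell (-0.90 in Cygb-/- and -1.15 in WT colons). Between genotypes in inflamed colon all 8 collagens had positive differences and none was called.

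Of the enzymes and chaperones that mature collagen, 7 of 10 rose in Cygb-/- colons and 3 of 10 in WT colons, and none fell. Loxl1, a relative of Lox, had a log2 fold change of 0.96 in Cygb-/- and 0.61 in WT colons, and Bmp1, the protease that trims procollagen and activates Lox, 0.82 in Cygb-/- and 0.71 in WT colons. Serpinh1, which encodes the collagen chaperone HSP47, had 0.79 in Cygb-/- colons (adjusted p = 1.87e-05) and 0.10 in WT colons (adjusted p = 0.418). Its response differed between the genotypes (interaction 0.69 ± 0.12 SE, adjusted p = 0.00923), as did that of Col5a1 (0.51 ± 0.11 SE, adjusted p = 0.0366). Thus 1 of 10 collagen maturation genes and 1 of 8 collagens passed the test that none of the 8 genes passed. The share of all probe sets called higher was 0.0460%. Without AOM/DSS Cygb-/- replicate 3 the interaction was still called for Serpinh1 (0.73, adjusted p = 0.0109) and not for Col5a1 (0.52, adjusted p = 0.0724). Serpinh1 averaged 8.54 in AOM/DSS Cygb-/-, 8.07 in AOM/DSS WT, 7.74 in untreated Cygb-/- and 7.97 in untreated WT colons. Col5a1 averaged 7.97, 7.52, 6.94 and 7.00 in the same order. No gene of either list was called between the genotypes in AOM/DSS or in untreated colons.

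Matricellular genes outside the 8 moved in both directions: 9 of 18 rose and 5 fell in Cygb-/- colons, and 7 rose and 4 fell in WT colons. Ccn3 had the largest fall (-1.24 in Cygb-/-, adjusted p = 0.000983, and -1.44 in WT colons, adjusted p = 1.67e-05), and Sparcl1, a relative of Sparc expressed by vessels and smooth muscle, had -0.97 in Cygb-/- (adjusted p = 9.59e-07) and -0.79 in WT colons (adjusted p = 1.05e-05). Sparc and Sparcl1 thus changed in opposite directions in both genotypes. Tgfbi, which like Postn carries fasciclin domains, rose by 1.13 in Cygb-/- colons (adjusted p = 1.87e-05) and by 0.81 in WT colons (adjusted p = 1.88e-06). Of 16 receptors of matricellular proteins 9 rose and 3 fell in Cygb-/- colons, and 8 rose and 3 fell in WT colons. They were led by Itga4, a fibronectin receptor subunit (1.07 in Cygb-/- and 0.98 in WT colons), and Cd47, a receptor of thrombospondin-1 (0.97 in Cygb-/- and 0.85 in WT colons), while Itga8, a receptor subunit for tenascin-C and fibronectin, fell (-0.78 in Cygb-/- and -0.54 in WT colons).

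**Figure D5:**
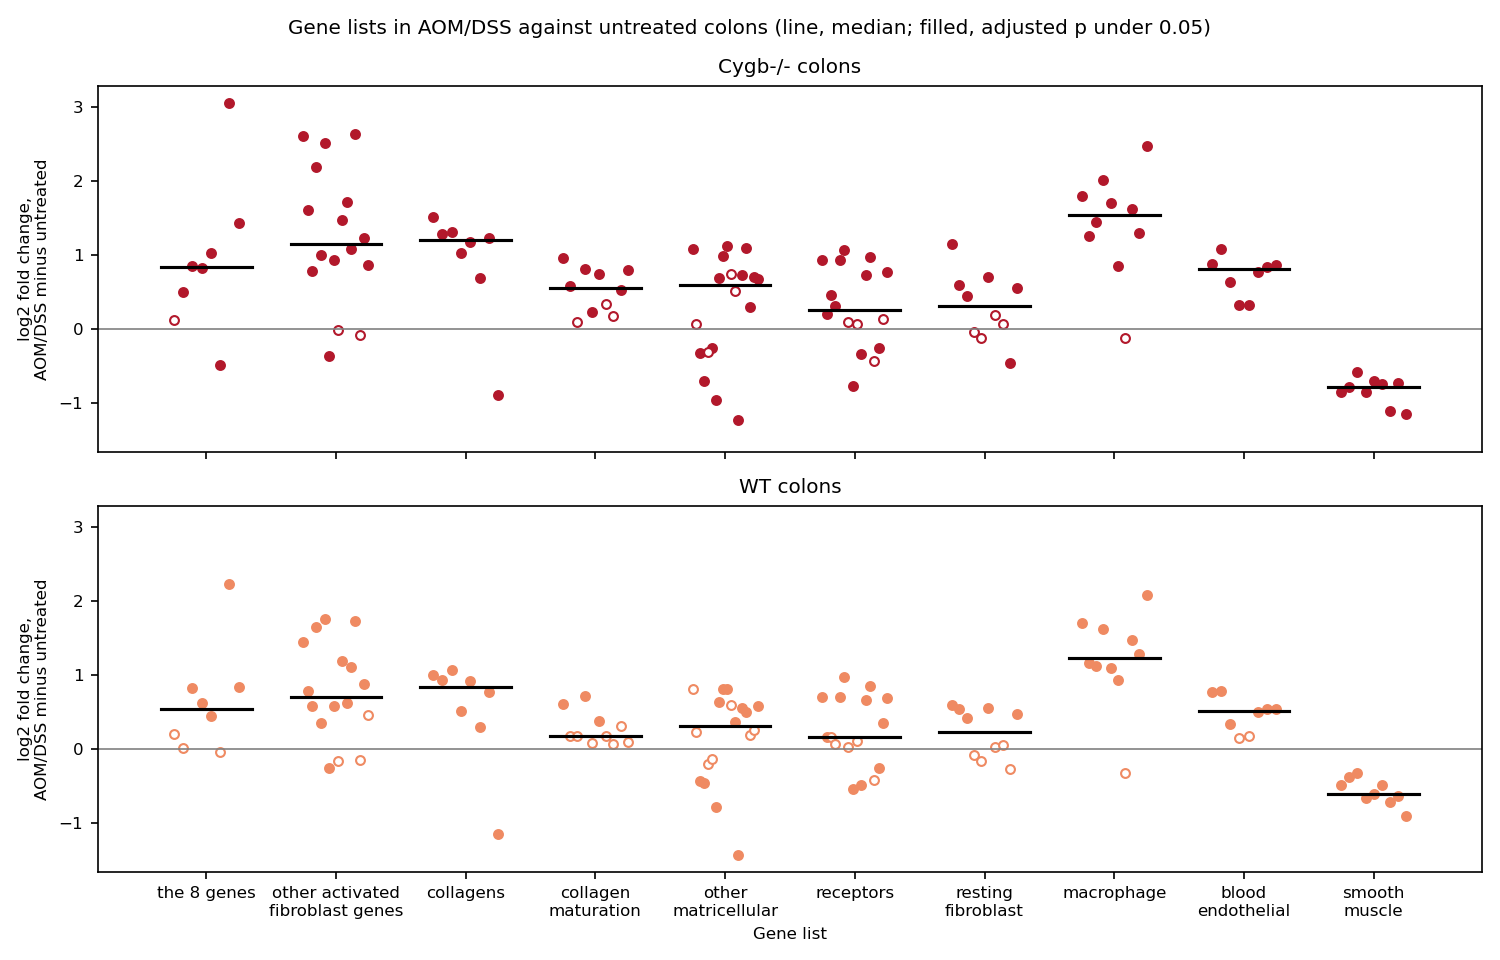
Log2 fold change of single genes (vertical axis, AOM/DSS minus untreated), grouped by list, in Cygb-/- colons (top) and WT colons (bottom). Filled points had a limma adjusted p under 0.05 and lines are list medians. The neutrophil, platelet, lymphatic endothelial, colonocyte and squamous epithelium lists are not drawn. The median of the 8 genes is 0.83 in Cygb-/- and 0.53 in WT colons, that of the collagens 1.20 in Cygb-/- and 0.84 in WT colons, and that of smooth muscle markers -0.79 in Cygb-/- and -0.61 in WT colons.

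Markers of other cell types moved with treatment as well. Macrophage markers gave 9 of 10 higher in each genotype, with list means of 8.05 to 8.87 in AOM/DSS Cygb-/-, 7.96 to 8.64 in AOM/DSS WT, 6.81 to 7.33 in untreated Cygb-/- and 6.87 to 7.18 in untreated WT colons. Neutrophil markers gave 9 of 10 higher in each, with list means of 6.01 to 8.21 in AOM/DSS Cygb-/-, 5.39 to 7.07 in AOM/DSS WT, 3.75 to 3.95 in untreated Cygb-/- and 3.71 to 4.10 in untreated WT colons. Blood endothelial markers gave 8 of 8 higher in Cygb-/- and 6 of 8 in WT colons, and smooth muscle markers 9 of 9 lower in both. Smooth muscle list means were 9.0 to 9.76 in AOM/DSS Cygb-/-, 9.34 to 9.98 in AOM/DSS WT, 10.05 to 10.24 in untreated Cygb-/- and 10.03 to 10.44 in untreated WT colons. Colonocyte markers gave 8 of 10 lower in Cygb-/- and 6 of 10 lower in WT colons. AOM/DSS Cygb-/- replicate 5, lowest for 5 of the 8 genes, was also the lowest of its group for the neutrophil, macrophage and blood endothelial lists and the highest for smooth muscle. AOM/DSS WT replicate 8 was the highest of its group for the first 3 of these lists, and replicate 3 the lowest for macrophage, blood endothelial and smooth muscle markers. The part of cell composition in the changes of the 8 genes was not tested.

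Among lists for cells that share Thbs1 or Pdpn, platelet markers gave 1 of 6 higher and 1 lower in Cygb-/- colons, and 2 higher and 1 lower in WT colons. Lymphatic endothelial markers gave 1 of 5 higher in each genotype and none lower. That gene was Prox1, a transcription factor also found in epithelial and endocrine cells (2.31 in Cygb-/- and 2.29 in WT colons). Lyve1, a surface marker, had 0.09 in Cygb-/- (limma adjusted p = 0.408) and -0.20 in WT colons (adjusted p = 0.176). Log2 fold changes were positive for 5 of the 5 lymphatic markers in Cygb-/- colons (median 0.20) and for 4 in WT colons (median 0.11). The part of lymphatic endothelium in the rise of Pdpn was not tested. Squamous epithelium markers, which a distal colon sample can pick up near the anus, gave 7 of 11 higher in Cygb-/- and 6 of 11 in WT colons. Their list means were 4.96 to 6.67 in AOM/DSS Cygb-/-, 4.58 to 7.48 in AOM/DSS WT, 4.21 to 4.48 in untreated Cygb-/- and 4.24 to 6.00 in untreated WT colons. Their part in the results of the 8 genes was not tested. In a fit chosen after seeing the data, without AOM/DSS Cygb-/- replicate 3, counts in Cygb-/- colons differed for 5 of the 14 lists: 4 resting fibroblast markers and 2 lymphatic markers were called higher, 4 other matricellular genes and 7 colonocyte markers lower, and 5 squamous markers higher. All 18 list genes named above as called in Cygb-/- colons were called in that fit (adjusted p of at most 0.0133).

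Over the 29 arrays, the named probe sets outside the 8 that ran closest to their mean standardised value were Ifitm6 (mean absolute difference 0.319 SD), Stfa2l1 (0.321), Il1a (0.323), Bgn (0.325) and Chrdl2 (0.328), of 23513 probe sets compared. Il1a encodes the cytokine interleukin-1α, Bgn the matrix proteoglycan biglycan, and Stfa2l1 belongs to a stefin family expressed in neutrophils. Of the 8 genes themselves Sparc (0.317) and Pdpn (0.324) ran nearest to that mean and Fap (1.10) farthest from it. Each of the 8 genes is part of that mean, so these distances are not comparable with those of outside probe sets.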

How the data were processed

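Whole distal colon RNA from 29 mice was hybridised to Affymetrix Mouse Gene 2.0 ST arrays, 1 mouse per array. The authors computed 1 log2 value per probe set with the RMA algorithm of the oligo package and normalized between arrays; the version, genome build, scan dates and slides are not given in the sources used here. The deposited log2 values of 41345 probe sets were used unchanged, with no filter.

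Probe sets were named from the platform annotation, and those with exactly 1 gene symbol (23521) were used for genes. A linear model was fitted to 2 groups at a time in limma 3.58.1 (R 4.3.3; lmFit, then eBayes), and to all 4 groups for the interaction; p-values were two-sided and adjusted by Benjamini-Hochberg over every probe set, with calls under 0.05. The study's methods used a t-test, run here as an alternative. Other alternatives were 1 fit of all groups, quantile normalization again, median centring, leaving out dim probe sets, a variance trend with robust prior, array weights, the replicate number as a block and leaving out each array. The test was checked on simulated data. The number of arrays limits the precision. Platform gene names can be old. The genes and lists were chosen with earlier results of these data known. From each list up to 3 called genes with the largest change could be named; Acta2, Sparcl1, Itga8 and Lyve1 fall outside this rule and were chosen after their values had been seen. The lists were resting fibroblast, activated fibroblast, collagen, collagen maturation, other matricellular, receptor, macrophage, neutrophil, platelet, blood endothelial, lymphatic endothelial, smooth muscle, colonocyte and squamous epithelium genes. Promoter sequences came from RefSeq, build GRCm38.p6. Figures were drawn with matplotlib 3.10.9 in Python 3.11.15.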

Additional observations from a re-analysis of the deposited data

How the results depend on the processing

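With the 8 genes taken in each of the 5 comparisons, 930 of 977 alternative log2 fold changes kept their direction and their side of the threshold, 9 lost a call, 8 gained one and 30 changed sign, while 121 of 125 counts of called genes stayed within 1.5 times the original. Of the counts, the AOM/DSS comparison of genotypes went from 0 to 1 with all 4 groups in 1 fit and the interaction from 0 to 1 with array weights (Pdpn, adjusted p = 0.0422). Leaving out single arrays gave 4 to 5 calls in WT colons, 7 in every fit of Cygb-/- colons, 0 in both genotype comparisons and 0 to 2 for the interaction. The changes of sign were all in uncalled values near 0. With array weights Fn1 became -0.00237 between genotypes in AOM/DSS colons, and Postn -0.0290 between genotypes in untreated colons. Over the fits that left out 1 array, Tnc in WT colons ranged between -0.10 and 0.0947. Between genotypes in AOM/DSS colons Postn ranged between -0.145 and 0.0272, and Fn1 between -0.0261 and 0.0591. Between genotypes in untreated colons Postn ranged between -0.0303 and 0.0473, Fn1 between -0.0444 and 0.0358, and Sparc between -0.00353 and 0.0675. For the interaction Postn ranged between -0.145 and 0.0265 and Fn1 between -0.0221 and 0.0631. The methods' t-test, run only on probe sets with at least a 1.5-fold difference, called 5 of the 8 genes in Cygb-/- and 4 in WT colons. Between genotypes none of the 8 genes reached that difference in AOM/DSS or in untreated colons. The t-test counts of 0 there were therefore fixed in advance and show no stability.

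In no comparison did every pair of same-numbered arrays deviate together with a correlation over 0.1, so the numbers were not used to pair mice. Between genotypes in AOM/DSS colons 3 of 5 pairs were over 0.1 (-0.143 to 0.219, mean 0.0760), and in the other 3 comparisons none was (mean correlations between -0.05 and -0.0076). With the replicate number as a block 6 of the 8 genes were called in Cygb-/- colons, with Fap at -0.45 (adjusted p = 0.158), 5 in WT colons and 0 in the other comparisons. Over all probe sets, the AOM/DSS comparison of genotypes had 69 calls, against 403 with all 4 groups in 1 fit, 11 with the block, 45 without AOM/DSS Cygb-/- replicate 2 and 43 without replicate 4. The methods' t-test called 315 of the 676 probe sets that it tested there. Untreated genotypes had 9 calls, against 23 with the variance trend, 16 with all 4 groups in 1 fit, 14 without untreated Cygb-/- replicate 8 and 5 with the block. With fewer probe sets tested, 31 of 20673 were called without dim probe sets and 27 of 190 by the methods' t-test. The interaction had 61 calls, against 111 with array weights, 131 without AOM/DSS Cygb-/- replicate 5 and 116 without AOM/DSS WT replicate 8. AOM/DSS had 10805 calls in Cygb-/- colons, against 7015 with the block, and 11053 in WT colons. By the t-test 4286 of 4526 tested probe sets were called in Cygb-/- colons and 3447 of 3615 in WT colons. Averaging several probe sets of a gene could not change a value, since each gene had 1 in the annotation used. The study's supplement lists Sparc more than once for inflamed colons, with differing values that were not compared here. The cause of these shifts was not tested.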
